A study of Homo sapiens with 9 samples.

Results

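The SLC2A family encodes the facilitative carriers that let glucose, fructose, urate, dehydroascorbic acid and myo-inositol cross cell membranes. Described here are 10 of its genes, *SLC2A1*, *SLC2A3*, *SLC2A4*, *SLC2A6*, *SLC2A8*, *SLC2A9*, *SLC2A10*, *SLC2A11*, *SLC2A12* and *SLC2A13*, found by matching the NCBI gene identifiers of the count table to these symbols. They are 10 of 28395 genes in the table, and all 10 were present as a row. RNA was sequenced from 3 kidney cell lines, with 3 libraries per line from separate cultures. HK2 is an immortalized line of normal proximal tubule cells. 786-O is a line from a primary clear cell renal cell carcinoma (ccRCC), and 786-M1A is a metastatic line derived from 786-O through lung metastases in mice, so that both tumor lines share their origin and each line stands for 1 source of cells. All 9 cultures were kept in Plasmax, a medium with nutrient levels close to those of human plasma, and none received a further treatment. The hexokinase gene *HK2*, written in italics, is not the line HK2.

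Most carriers of this family use no energy and move their substrate down its concentration gradient. The rate at which a sugar enters depends on that gradient and on the amount and the kind of carrier. The carriers are sorted by sequence into class I, the classical glucose carriers, class II, carriers of fructose and urate, and class III, a mixed group, many of which sit on internal membranes. In the proximal tubule, glucose and urate taken back from the filtrate leave the cell towards the blood through carriers of this family. *SLC2A1* is a textbook target of the hypoxia-inducible factors (HIF), which accumulate in ccRCC when the tumor suppressor VHL is lost.

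Against HK2, *SLC2A1*, *SLC2A8* and *SLC2A10* were higher in both tumor lines, *SLC2A9* and *SLC2A11* were lower in both, and *SLC2A4* was at or near 0 in both. *SLC2A12* was lower in 786-M1A than in either other line. *SLC2A3*, *SLC2A6*, *SLC2A9* and *SLC2A11* were lowest in 786-O, with 786-M1A above it. The promoters below show the sequence in front of 4 genes that differed by at least 2-fold in opposite directions, *SLC2A1* and *SLC2A10*, which were higher in the tumor lines, and *SLC2A9* and *SLC2A12*, which were lower in one or both of them. They are the 250 bases before the RefSeq transcription start (GRCh38.p14), written 5′ to 3′ on the strand of the gene. Capitals mark the core letters of the hypoxia response element, ACGTG or GCGTG on either strand (CACGT or CACGC where the core is read on the other strand).

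*SLC2A1*, chr1:42958869-42959118, minus strand: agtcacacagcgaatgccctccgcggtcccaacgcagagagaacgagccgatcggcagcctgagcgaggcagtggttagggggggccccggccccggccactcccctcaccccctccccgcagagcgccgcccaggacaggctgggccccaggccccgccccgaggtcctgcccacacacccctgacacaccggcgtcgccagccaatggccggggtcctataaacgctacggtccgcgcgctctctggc
*SLC2A10*, chr20:46709399-46709648, plus strand: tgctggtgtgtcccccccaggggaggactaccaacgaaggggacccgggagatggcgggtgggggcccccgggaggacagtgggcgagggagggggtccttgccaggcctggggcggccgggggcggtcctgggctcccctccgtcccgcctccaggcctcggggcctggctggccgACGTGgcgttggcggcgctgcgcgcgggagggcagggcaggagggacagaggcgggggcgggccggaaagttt
*SLC2A9* first start, chr4:10040271-10040520, minus strand: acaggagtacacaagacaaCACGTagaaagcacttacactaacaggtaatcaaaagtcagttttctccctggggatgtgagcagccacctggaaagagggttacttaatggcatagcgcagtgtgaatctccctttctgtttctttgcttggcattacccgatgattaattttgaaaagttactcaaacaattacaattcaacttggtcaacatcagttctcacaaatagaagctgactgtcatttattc
*SLC2A9* second start, chr4:10021498-10021747, minus strand: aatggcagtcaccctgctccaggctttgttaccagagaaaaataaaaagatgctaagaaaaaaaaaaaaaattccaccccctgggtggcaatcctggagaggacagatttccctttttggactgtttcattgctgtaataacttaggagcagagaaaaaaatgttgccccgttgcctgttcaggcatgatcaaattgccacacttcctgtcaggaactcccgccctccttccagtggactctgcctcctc
*SLC2A12*, chr6:134052625-134052874, minus strand: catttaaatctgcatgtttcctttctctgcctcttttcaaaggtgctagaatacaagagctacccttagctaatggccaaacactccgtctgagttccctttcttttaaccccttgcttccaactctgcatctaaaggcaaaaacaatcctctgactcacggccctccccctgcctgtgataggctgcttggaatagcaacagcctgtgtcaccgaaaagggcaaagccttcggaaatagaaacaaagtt

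The window of *SLC2A1* held 24 CpG pairs and 72.4% G or C, with 1 TATAAA, 1 CCAAT and 2 GGGCGG letters on either strand, and no hypoxia core. The window of *SLC2A10* was 76.8% G or C and held 1 core, 73 bases before the start. The windows of *SLC2A9* and *SLC2A12* had a base composition poorer in CpG. Those of *SLC2A9* held 3 and 2 CpG pairs with 40.0% and 46.0% G or C, and 1 core 231 bases before the first start. That of *SLC2A12* held 4 CpG pairs, 46.0% G or C and no core. Over all promoter windows, the median was 11 CpG pairs (quartiles 3 and 23) and 58.0% G or C. *SLC2A8* and *SLC2A11* also differed by at least 2-fold between 2 lines, and their windows are not printed. The windows of *SLC2A11*, lower in the tumor lines, held 7, 15 and 27 CpG pairs with 53.2% to 64.0% G or C. That of *SLC2A8*, higher in the tumor lines, held 22 CpG pairs with 65.2% G or C.

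Of the 10 genes, 8 had such a window, with 11 starts in all, and *SLC2A3* and *SLC2A4* had none in the table used. A core was found in 7 of the 11 windows, of which 3 belong to *SLC2A11*, whose first and second windows share bases. Among all 35116 promoter windows of the same length, 43.2% held either core, 18.5% the ACGTG form and 32.2% the GCGTG form. *SLC2A6* and *SLC2A13*, whose levels differed by less than 2-fold between any 2 lines, also held cores and are shown for contrast. *SLC2A6* held 3 cores, and in *SLC2A13* both cores are the 2 strands of a single CACGTG, an E-box, a motif found in 6.34% of all windows. The letters of a motif in a window are a description of the sequence and not a measured site. Bases outside the windows were not searched, so a window without a core does not show that the gene has none.

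*SLC2A6*, chr9:133479100-133479349, minus strand: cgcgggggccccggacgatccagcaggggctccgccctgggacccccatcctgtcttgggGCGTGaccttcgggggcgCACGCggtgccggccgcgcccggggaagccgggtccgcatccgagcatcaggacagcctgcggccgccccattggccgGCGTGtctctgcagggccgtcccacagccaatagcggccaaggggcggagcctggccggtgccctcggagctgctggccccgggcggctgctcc
*SLC2A13*, chr12:40106082-40106331, minus strand: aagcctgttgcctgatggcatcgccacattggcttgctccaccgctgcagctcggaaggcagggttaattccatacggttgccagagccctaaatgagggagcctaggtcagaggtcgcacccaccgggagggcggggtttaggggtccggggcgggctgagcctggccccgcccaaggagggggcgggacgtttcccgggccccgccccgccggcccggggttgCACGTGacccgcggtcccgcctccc

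The libraries held between 30212291 and 45362428 counts each, and levels are given as CPM, the counts of a gene relative to the size of its library after scaling by the trimmed mean of M-values (TMM). A floor of 3 counts is between 0.0649 and 0.0966 CPM. Of the 10 genes, 9 had counts in every library, and the same 9 had the mean of at least 50 counts required for testing, among 12695 genes tested. Differences are log2 fold changes of edgeR's quasi-likelihood test with their standard error (SE) and a p-value with Benjamini-Hochberg adjustment across every gene tested. A gene is called where its adjusted p is under 0.05. In RNA from whole cultures, a lower level cannot be told apart between fewer cells that hold a transcript and less of it per cell. Markers of kidney epithelium were present in all lines, summing to 1441 to 1481 CPM for HK2, 651 to 702 CPM for 786-O and 915 to 1028 CPM for 786-M1A. All 8 of them were above 3 counts in every HK2 library, and 7 in every library of each tumor line. Proximal tubule markers summed to 239 to 243 CPM for HK2, 341 to 354 CPM for 786-O and 228 to 253 CPM for 786-M1A. Of these 9 markers, 6 or 7 were above 3 counts in every library of a line, but *LRP2*, the endocytic receptor megalin that defines these cells, was at 0 counts in all 9 libraries. The ccRCC markers measured, 5 of a list of 6 (*NDUFA4L2* was not analysed here), summed to 82.3 to 87.1 CPM for HK2, 542 to 556 CPM for 786-O and 920 to 977 CPM for 786-M1A. *CA9*, one of them, was at 0 counts in every HK2 library and not above 3 counts in every library of either tumor line. Leukocyte and endothelial markers summed to at most 0.541 CPM in any library, and *PTPRC* and *CD3E* were at 0 counts throughout. Fibroblast markers summed to 72.3 to 80.8 CPM for HK2, 276 to 345 CPM for 786-O and 20.4 to 23.9 CPM for 786-M1A. These sums rest on few genes. Of the 5 markers, 3 were above 3 counts in every HK2 library and 2 in every library of each tumor line. *COL1A2* was at 0 counts in every HK2 library and *PDGFRA* in every tumor library. The part of these markers in the differences below was not tested.

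Of class I, *SLC2A1* (chromosome 1, 42925353 to 42958893, minus strand, GRCh38) encodes GLUT1, which supplies most cells with glucose at rest. Its counts were 6045, 7517 and 9298 in the HK2 libraries, 35675, 30309 and 34882 in 786-O, and 39046, 40872 and 39236 in 786-M1A. Scaled, HK2 had 194 ± 7.16, 786-O 811 ± 11.2 and 786-M1A 1061 ± 21.8 CPM (SD, n = 3), where the highest HK2 library, at 201 CPM, was below the lowest 786-O library, at 805 CPM, and no 2 lines overlapped. *SLC2A1* was 4.18-fold higher in 786-O than in HK2 (log2 fold change 2.06, SE 0.0359, edgeR adjusted p = 2.66e-22) and 5.46-fold higher in 786-M1A (2.45, SE 0.0364, adjusted p = 1.53e-23). Both comparisons use the same HK2 libraries. The metastatic line was 1.31-fold above its parent (0.39, SE 0.0342, edgeR adjusted p = 3.49e-09). Ordered by mean CPM over all genes of the table, *SLC2A1* stood at rank 1035 for HK2, 102 for 786-O and 63 for 786-M1A.

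*SLC2A3* (chromosome 12, 7919230 to 8019007, minus strand) encodes GLUT3, the high-affinity glucose carrier of neurons. It gave 661, 884 and 945 counts in HK2, 624, 642 and 684 in 786-O, and 677, 763 and 749 in 786-M1A, or 21.2 ± 0.767, 15.8 ± 1.53 and 19.5 ± 0.647 CPM (SD, n = 3). All 786-O libraries were below those of both other lines. The level was 1.35-fold lower in 786-O than in HK2 (-0.43, SE 0.0650, edgeR adjusted p = 2.81e-06) and 1.24-fold higher in 786-M1A than in 786-O (0.31, SE 0.0658, adjusted p = 0.000426). Between 786-M1A and HK2 the libraries did not overlap, but the difference of -0.12 missed the threshold in edgeR (95% interval -0.28 to 0.03, adjusted p = 0.0808). The value of *SLC2A3* is uncertain to the extent that reads are shared with its near-identical neighbor *SLC2A14*, since 500 of the 3753 stretches of 75 bases in its canonical transcript, 13.3%, also occur in *SLC2A14*. *SLC2A14* itself had 61 to 131 counts per library and was lower in 786-O than in HK2 (-0.85, edgeR adjusted p = 4.24e-06), lower in 786-M1A than in HK2 (-0.31, adjusted p = 0.0249) and higher in 786-M1A than in 786-O (0.53, adjusted p = 0.00249).

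*SLC2A4* (chromosome 17, 7281718 to 7288257, plus strand) encodes GLUT4, the carrier that insulin brings to the surface of muscle and fat cells. It had 117, 123 and 121 counts in the HK2 libraries, against 1, 4 and 3 in 786-O and 0, 3 and 3 in 786-M1A. The HK2 level was 3.15 ± 0.581 CPM (SD, n = 3), and 5 of the 6 tumor libraries were at or under 3 counts. *SLC2A4* was below the mean count required for the main test. Over the summed counts of each line, 361 for HK2, 8 for 786-O and 6 for 786-M1A, it was 47.7-fold lower in 786-O (95% interval 24.0 to 111, counting error only) and 57.5-fold lower in 786-M1A (26.2 to 158). Without the filter on low counts, edgeR gave an adjusted p of 7.59e-78 and 2.29e-74 for these differences. It gave 0.878 between the tumor lines, whose ratio of 0.830 had a counting interval of 0.237 to 2.73. The p-values of this fit cannot be set beside those of the main fit. For *SLC2A9* in 786-O against HK2, for example, edgeR gave an adjusted p of 4.99e-128 without the filter and 1.89e-15 in the main fit. An exact permutation test of log2 CPM over the 3 lines gave p = 0.025.

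**Figure D1:**
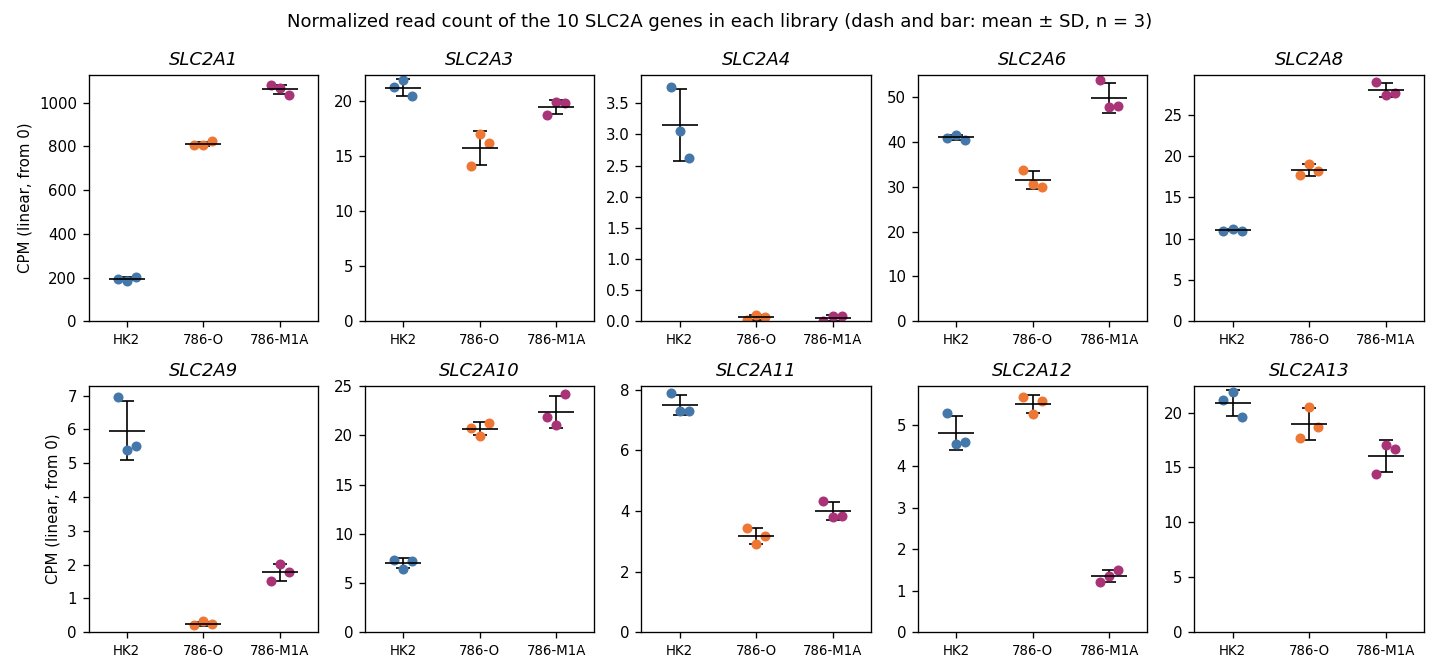
Normalized read count (CPM, linear axis from 0, its own range in each panel) of the 10 genes in the 3 lines. Points are libraries, the dash and bar are the mean ± SD of 3 libraries. *SLC2A1* steps up from 194 CPM (HK2) to 811 (786-O) and 1061 (786-M1A), *SLC2A9* and *SLC2A11* are lowest in 786-O, and *SLC2A12* is low in 786-M1A alone among the 3 lines.

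Of the 10 genes, *SLC2A9* and *SLC2A11* are of class II, and both were lower in the tumor lines. *SLC2A5*, a fructose carrier gene of class II outside the 10, went the other way. Against HK2 it was higher by 3.44 in 786-O (edgeR adjusted p = 9.74e-15) and by 2.83 in 786-M1A (adjusted p = 1.68e-12). *SLC2A9* (chromosome 4, 9771153 to 10054936, minus strand) encodes GLUT9, the urate carrier through which reabsorbed urate leaves the proximal tubule cell, and whose inherited loss causes renal hypouricemia. It had 216, 217 and 255 counts in HK2, 9, 12 and 10 in 786-O, and 55, 77 and 67 in 786-M1A. Scaled, HK2 had 5.95 ± 0.871, 786-O 0.253 ± 0.0596 and 786-M1A 1.77 ± 0.243 CPM (SD, n = 3). The 3 lines were fully separated, with 786-M1A between the others, and every 786-O library was still above the 3-count floor. *SLC2A9* was 23.3-fold lower in 786-O than in HK2 (-4.54, SE 0.193, edgeR adjusted p = 1.89e-15), the largest difference in this comparison among the 9 tested of the 10 genes. In 786-M1A it was 3.32-fold lower than in HK2 (-1.73, SE 0.132, adjusted p = 5.19e-11). It was thus 7.02-fold higher in the metastatic line than in its parent (2.81, SE 0.250, edgeR adjusted p = 4.01e-09), where it ranked 52 from the top among 12695 genes ordered by log2 fold change.

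*SLC2A11* (chromosome 22, 23856703 to 23886312, plus strand) encodes GLUT11, a carrier of glucose and fructose. It had 245, 294 and 338 counts in HK2, 153, 110 and 135 in 786-O, and 157, 146 and 145 in 786-M1A, or 7.50 ± 0.337, 3.19 ± 0.264 and 3.995 ± 0.303 CPM (SD, n = 3). Each HK2 library was above every tumor library, while the lowest 786-M1A library, at 3.81 CPM, was just above the highest 786-O library, at 3.45 CPM. The level was 2.34-fold lower in 786-O (-1.22, SE 0.0938, edgeR adjusted p = 6.75e-11) and 1.87-fold lower in 786-M1A (-0.91, SE 0.0919, adjusted p = 6.92e-09). The difference between the tumor lines, 0.32 (SE 0.105, edgeR adjusted p = 0.0136), was no longer called without 786-O replicate 2 (adjusted p = 0.0569) or without 786-M1A replicate 1 (adjusted p = 0.0655). Part of its transcript, 11.8% of 75-base stretches, also occurs in 1 gene that is not a row of the count table, and its exons overlap others on both strands.

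Class III showed 3 patterns. *SLC2A8* and *SLC2A10* were higher in both tumor lines than in HK2. *SLC2A8* (chromosome 9, 127397138 to 127408424, plus strand) encodes GLUT8, a sugar carrier held on internal membranes. Its counts were 340, 449 and 506 in HK2, 785, 718 and 768 in 786-O, and 1046, 1052 and 1044 in 786-M1A. These were 11.0 ± 0.121, 18.3 ± 0.699 and 28.0 ± 0.826 CPM (SD, n = 3), a step up at each line with no overlap. *SLC2A8* was 1.66-fold higher in 786-O than in HK2 (0.73, SE 0.0582, edgeR adjusted p = 1.28e-10), 2.54-fold higher in 786-M1A than in HK2 (1.34, SE 0.0563, adjusted p = 1.31e-15) and 1.53-fold higher in 786-M1A than in 786-O (0.61, SE 0.0523, adjusted p = 2.05e-09).

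*SLC2A10* (chromosome 20, 46709649 to 46736347, plus strand) encodes GLUT10, which carries dehydroascorbic acid, the oxidized form of vitamin C, and is mutated in arterial tortuosity syndrome. It had 227, 260 and 336 counts in HK2, 920, 751 and 901 in 786-O, and 790, 806 and 914 in 786-M1A, or 7.01 ± 0.479, 20.7 ± 0.673 and 22.3 ± 1.63 CPM (SD, n = 3). The libraries of the tumor lines overlapped each other and lay wholly above HK2. It was 2.95-fold higher in 786-O than in HK2 (1.56, SE 0.0714, edgeR adjusted p = 7.36e-15) and 3.19-fold higher in 786-M1A (1.67, SE 0.0714, adjusted p = 1.86e-15). The tumor lines differed by 0.11, which missed the threshold (95% interval -0.04 to 0.26, edgeR adjusted p = 0.127), and passed it when 786-M1A replicate 2 was left out (0.16, adjusted p = 0.0462).

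*SLC2A12* (chromosome 6, 133987581 to 134052624, minus strand) encodes GLUT12, a carrier of glucose that also moves urate. It had 164, 183 and 212 counts in HK2, 252, 198 and 236 in 786-O, and 44, 52 and 57 in 786-M1A, or 4.80 ± 0.414, 5.51 ± 0.220 and 1.36 ± 0.145 CPM (SD, n = 3). The highest 786-M1A library, at 1.51 CPM, was far below the lowest of the other 6, at 4.55 CPM, whereas the HK2 and 786-O libraries overlapped. *SLC2A12* was 4.04-fold lower in 786-M1A than in 786-O (-2.02, SE 0.120, edgeR adjusted p = 5.06e-12) and 3.50-fold lower than in HK2 (-1.81, SE 0.124, adjusted p = 8.47e-12). Between 786-O and HK2 the difference of 0.21 was called narrowly (SE 0.0930, edgeR adjusted p = 0.0426). The call was lost with upper-quartile scaling (edgeR adjusted p = 0.102) and with DESeq2 (adjusted p = 0.137). It was also lost with at least 10 counts in every library (edgeR adjusted p = 0.0559) and with the replicate block (adjusted p = 0.0531). Leaving out each of 4 libraries in turn, HK2 replicates 2 and 3 and 786-O replicates 1 and 3, lost it too (edgeR adjusted p up to 0.153). Its exons overlap those of *TBPL1* on the other strand over 2852 bases, 51.2% of its exon length, and no source used here gives the strand setting of the counting. *TBPL1*, a relative of the TATA-binding protein, had 26.1 ± 1.49, 24.8 ± 0.162 and 24.0 ± 0.535 CPM in the same lines (SD, n = 3), with log2 differences of -0.07 (edgeR adjusted p = 0.218), -0.12 (adjusted p = 0.0424) and -0.05 (adjusted p = 0.449) for 786-O against HK2, 786-M1A against HK2 and 786-M1A against 786-O.

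*SLC2A6* (chromosome 9, 133471094 to 133479127, minus strand) encodes GLUT6, a carrier of lysosomal membranes. Its counts were 1268, 1675 and 1870 in HK2, 1497, 1154 and 1266 in 786-O, and 1941, 1827 and 1818 in 786-M1A, or 41.0 ± 0.601, 31.4 ± 2.04 and 49.8 ± 3.38 CPM (SD, n = 3). Its level lay below HK2 in 786-O and above HK2 in 786-M1A, with no overlap between any 2 lines. It was lower in 786-O than in HK2 (-0.38, SE 0.0548, edgeR adjusted p = 1.54e-06), higher in 786-M1A than in HK2 (0.28, SE 0.0534, adjusted p = 5.06e-05) and 1.58-fold higher in 786-M1A than in 786-O (0.66, SE 0.0542, adjusted p = 1.09e-09). *SLC2A13* (chromosome 12, 39755025 to 40106089, minus strand) encodes HMIT, which carries myo-inositol together with protons. It had 657, 882 and 907 counts in HK2, 783, 773 and 790 in 786-O, and 519, 653 and 631 in 786-M1A, or 20.9 ± 1.17, 19.0 ± 1.46 and 16.0 ± 1.45 CPM (SD, n = 3). The HK2 and 786-O libraries overlapped, and those of 786-M1A were below all others. *SLC2A13* was lower in 786-M1A than in HK2 (-0.38, SE 0.0714, edgeR adjusted p = 4.94e-05) and than in 786-O (-0.24, SE 0.0716, adjusted p = 0.00772). The latter call was lost without 786-O replicate 2 (edgeR adjusted p = 0.0656) or without 786-M1A replicate 1 (adjusted p = 0.0559). Against HK2, 786-O differed by -0.14 (95% interval -0.31 to 0.03, edgeR adjusted p = 0.0649), which moved to either side of the threshold with the setting (adjusted p between 0.018 and 0.282).

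Counted over the 10 genes, 8 of the 9 tested were called in 786-O against HK2, 4 higher and 4 lower. Of all genes tested, 84.2% were called in this comparison, 41.6% higher and 42.6% lower. *SLC2A2*, *SLC2A5* and *SLC2A14* were also tested but are not part of these counts. At least 2-fold differences were found for 4 of the 9, against 22.3% of all genes. These were *SLC2A1* and *SLC2A10*, higher, as were 9.18% of all genes by this measure, and *SLC2A9* and *SLC2A11*, lower, as were 13.1%. In 786-M1A against HK2, 8 of 9 were again called, 4 higher and 4 lower, where 84.9% of all genes were called, 41.6% higher and 43.3% lower. At least 2-fold were 5 of 9, against 25.4% of all genes. These were *SLC2A1*, *SLC2A8* and *SLC2A10*, higher, as were 10.4% of all genes, and *SLC2A9* and *SLC2A12*, lower, as were 15.0%. In 786-M1A against 786-O, 8 of 9 were called, 6 higher and 2 lower, where 56.0% of all genes were called, 27.9% higher and 28.0% lower. Of the 9, 2 differed by at least 2-fold there, against 6.59% of all genes, namely *SLC2A9*, higher, as were 2.03% of all genes, and *SLC2A12*, lower, as were 4.55%.

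The shares of called genes against HK2 were thus near the background. The median log2 fold change of the 9 tested genes was -0.14 in 786-O against HK2, -0.12 in 786-M1A against HK2 and 0.32 in 786-M1A against 786-O, beside -0.01, -0.02 and 0.00 over all genes tested. The libraries did not overlap for 7, 9 and 8 of the 9 genes in these comparisons, beside 85.5%, 85.0% and 61.6% of all genes. Called in all 3 comparisons were 6 genes, *SLC2A1*, *SLC2A6*, *SLC2A8*, *SLC2A9*, *SLC2A11* and *SLC2A12*, where 42.5% of all genes tested were called in all 3. Of these, *SLC2A11* and *SLC2A12* each have a call that was lost under alternatives, as given above. In exact permutation tests of log2 CPM over the 3 lines, *SLC2A1*, *SLC2A3*, *SLC2A6*, *SLC2A8*, *SLC2A9* and *SLC2A11* reached p = 0.00357, the smallest that 3 lines of 3 libraries allow. *SLC2A10* and *SLC2A12* reached p = 0.00714 and *SLC2A13* p = 0.0107 in the same exact test, whereas a pair of lines cannot go below p = 0.1.

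**Figure D2:**
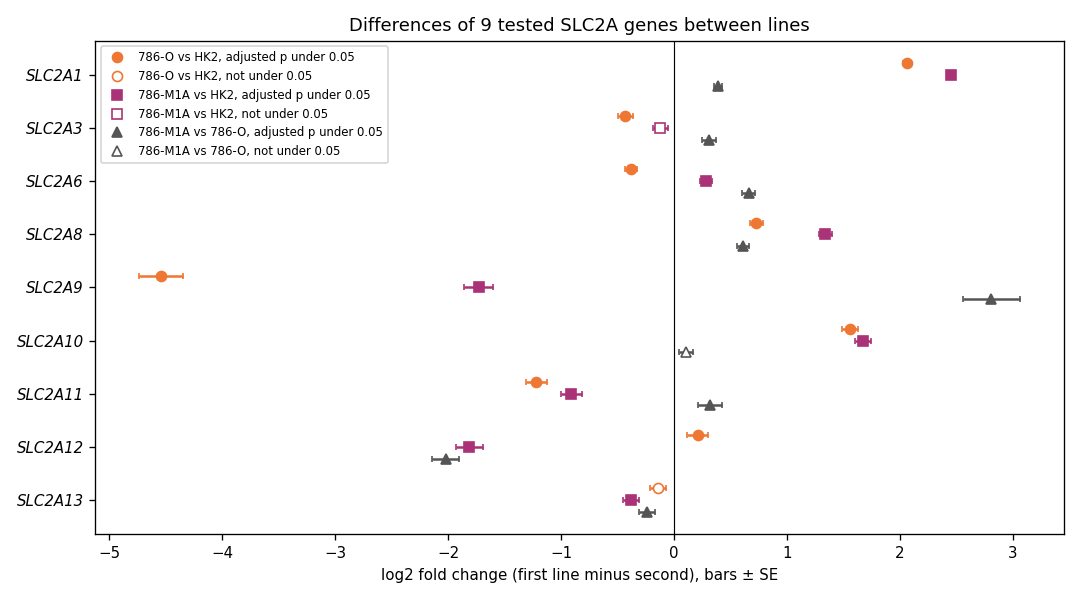
Log2 fold change (horizontal axis, first line minus second, bars ± SE) of the 9 tested genes in the 3 comparisons. Filled symbols have an edgeR adjusted p under 0.05 and open symbols do not. *SLC2A9* lies farthest to the left in 786-O against HK2, at -4.54, and farthest to the right in 786-M1A against 786-O, at 2.81.

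Levels of different genes were compared as CPM per kilobase of exon. *SLC2A1* was the most abundant of the 10 in every line, with 29.4 ± 1.08 CPM per kilobase for HK2, 123 ± 1.69 for 786-O and 160 ± 3.29 for 786-M1A (SD, n = 3). Its share of the summed level of the 10 genes was 54.7% ± 1.35 for HK2, 84.0% ± 0.337 for 786-O and 83.8% ± 0.378 for 786-M1A. *SLC2A6* was next in all lines, holding 21.6% for HK2, 6.10% for 786-O and 7.36% for 786-M1A, or 13.2%, 3.40% and 4.10% when the longest transcript was used as the length. The summed level was 53.6 ± 0.856 CPM per kilobase for HK2, 146 ± 1.42 for 786-O and 192 ± 3.76 for 786-M1A. Without *SLC2A1* it was 24.3 ± 0.560, 23.3 ± 0.271 and 31.1 ± 0.899.

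In HK2 the order after *SLC2A6* was *SLC2A3*, *SLC2A8*, *SLC2A13*, *SLC2A10*, *SLC2A9*, *SLC2A12*, *SLC2A11* and *SLC2A4*, where *SLC2A3* overlapped *SLC2A8* and each of the last 4 overlapped its neighbor in this order. In 786-O it was *SLC2A8*, *SLC2A10*, *SLC2A3*, *SLC2A13*, *SLC2A12*, *SLC2A11*, *SLC2A9* and *SLC2A4*, and the libraries of *SLC2A3* and *SLC2A13* overlapped. In 786-M1A it was *SLC2A8*, *SLC2A10*, *SLC2A3*, *SLC2A13*, *SLC2A11*, *SLC2A9*, *SLC2A12* and *SLC2A4*, and those of *SLC2A9* and *SLC2A12* overlapped. These orders rest on the exon length. With the longest transcript as length, the order in HK2 became *SLC2A8*, *SLC2A3*, *SLC2A13*, *SLC2A9*, *SLC2A11*, *SLC2A10*, *SLC2A4* and *SLC2A12* after *SLC2A6*, while those of the tumor lines did not change. *SLC2A10*, the dehydroascorbic acid carrier, stood above *SLC2A3* in the tumor lines and below it in HK2 with either length.

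**Figure D3:**
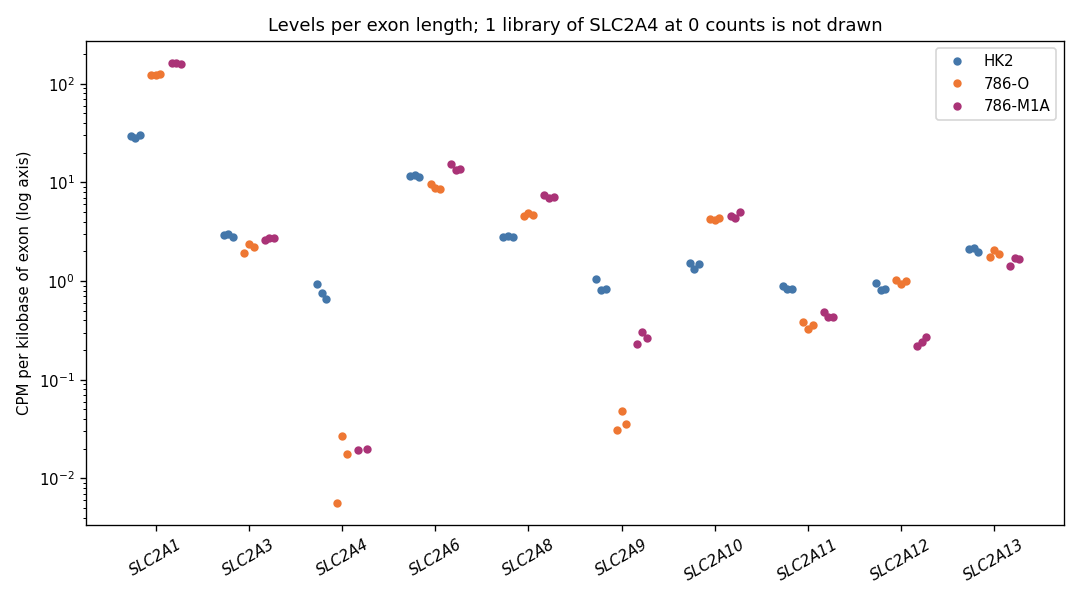
Level per exon length (CPM per kilobase, log axis) of the 10 genes in each library, colored by line. *SLC2A1* is highest throughout. The *SLC2A4* points of the tumor lines stand for 1 to 4 counts, and the 786-M1A library with 0 counts of it is not drawn.

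The tested genes whose scaled pattern over the 9 libraries was closest to a gene of the family are given for *SLC2A1* and *SLC2A6*, the most abundant per kilobase, with the root mean square difference of centered log2 CPM as the distance. For *SLC2A1* they were *CRAT*, at 0.0818, *CCND1*, at 0.0864, and *SLC35C1*, at 0.0902. *CCND1*, the cell cycle gene for cyclin D1, was higher by 1.97 in 786-O and by 2.30 in 786-M1A against HK2. In the same comparisons, *CRAT* was higher by 1.94 and 2.30, and *SLC35C1* by 2.24 and 2.62. For *SLC2A6* they were *RPL10*, *TEDC1* and *SSR4*, at 0.0454 to 0.0479.

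Of the 4 other SLC2A genes, 3 were tested. *SLC2A2* encodes GLUT2, the low-affinity glucose carrier of liver and kidney tubule. It had 110, 130 and 126 counts in HK2, 111, 96 and 125 in 786-O, and 2, 3 and 4 in 786-M1A. The HK2 and 786-O libraries overlapped (-0.23, 95% interval -0.53 to 0.08, edgeR adjusted p = 0.0927), and *SLC2A2* was lower in 786-M1A than in HK2 (-5.23, SE 0.266, adjusted p = 4.41e-14) and than in 786-O (-5.00, SE 0.275, adjusted p = 1.38e-12). *SLC2A5* encodes GLUT5, the fructose carrier. Its libraries had 14 to 16 counts for HK2, 163 to 189 for 786-O and 103 to 106 for 786-M1A, and it was 10.9-fold higher in 786-O than in HK2 (3.44, edgeR adjusted p = 9.74e-15), 7.11-fold higher in 786-M1A (2.83, adjusted p = 1.68e-12) and lower in 786-M1A than in 786-O (-0.61, adjusted p = 4.36e-05). Among the tested SLC2A genes, *SLC2A2* and *SLC2A12* were those at least 2-fold lower in the metastatic line than in its parent. *SLC2A7* had at most 1 count in any library.

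Glucose, inositol and urate can also be moved by other carriers, and 7 sodium-coupled carriers of sugars and inositol were listed. Only *SLC5A3*, the sodium-coupled inositol carrier, had enough counts to be tested, at 29.5 ± 1.39, 35.8 ± 2.64 and 31.8 ± 2.83 CPM for HK2, 786-O and 786-M1A (SD, n = 3). It was higher in 786-O than in HK2 (0.27, edgeR adjusted p = 0.00062), lower in 786-M1A than in 786-O (-0.17, adjusted p = 0.0344), and 0.11 apart between 786-M1A and HK2 (adjusted p = 0.128). *SLC5A2*, the main glucose carrier of the tubule lumen, had 20 to 36 counts in HK2 and 4 to 10 in the tumor lines, and *SLC5A1* had at most 2 counts in any library.

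Enzymes that act on sugars and inositol once inside the cell were tested for 10 of 12 genes. In 786-O against HK2, 4 were higher and 5 lower, in 786-M1A against HK2 4 were higher and 3 lower, and between the tumor lines 3 were higher and 3 lower in 786-M1A. The median log2 fold changes of the 10 were -0.40, 0.05 and -0.02. Against HK2, the largest differences were in inositol metabolism. *ISYNA1*, which makes inositol from glucose 6-phosphate, was lower in 786-O (-4.68, edgeR adjusted p = 1.5e-23) and in 786-M1A (-4.58, adjusted p = 2.26e-23) than in HK2. *MIOX*, the kidney enzyme that breaks inositol down, was also lower in both, with log2 fold changes of -4.39 (edgeR adjusted p = 2.8e-16) and -5.18 (adjusted p = 1.47e-16). *ADPGK*, *HK1*, *KHK* and *SORD*, which phosphorylate glucose or fructose or oxidize sorbitol, were higher in both tumor lines than in HK2, by 0.29 to 1.02 in 786-O and 0.53 to 0.77 in 786-M1A. *GALK1*, for galactose, was not called in any comparison. *HKDC1*, a hexokinase relative, was lower in 786-O (-1.32, edgeR adjusted p = 2.18e-18), in 786-M1A (-2.38, adjusted p = 1.78e-22) and in 786-M1A against 786-O (-1.06, adjusted p = 3.29e-15). Between the tumor lines, *AKR1B1*, the aldose reductase that turns glucose into sorbitol, was higher in 786-M1A (0.87, edgeR adjusted p = 5.8e-14). So was the hexokinase gene *HK2* (0.67, edgeR adjusted p = 1.48e-06). Both genes were lower in 786-O than in the line HK2 (-0.84, edgeR adjusted p = 1.1e-14, and -0.82, adjusted p = 3.17e-08). Neither was called in 786-M1A against the line HK2 (0.02, edgeR adjusted p = 0.566, and -0.15, adjusted p = 0.0728).

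Of 11 other genes of urate handling, 4 were tested. The apical urate exchanger *SLC22A12* and the basolateral anion carriers *SLC22A6* and *SLC22A8* were at 0 counts in all 9 libraries. *PDZK1*, the scaffold that holds urate carriers at the brush border, was lower in 786-O than in HK2 (-1.15, edgeR adjusted p = 7.49e-12), in 786-M1A than in HK2 (-2.24, adjusted p = 8e-16) and in 786-M1A than in 786-O (-1.09, adjusted p = 2.1e-09). *ABCC4*, which exports urate among other anions, was higher by 0.41 (edgeR adjusted p = 4.91e-09), 0.67 (adjusted p = 7.99e-13) and 0.26 (adjusted p = 7.33e-06) in the same comparisons. *SLC17A3*, another urate exporter, was higher in 786-O than in HK2 (0.69, edgeR adjusted p = 0.0002) and lower in 786-M1A than in HK2 (-0.52, adjusted p = 0.00983) and than in 786-O (-1.21, adjusted p = 1.67e-06). *ABCG2*, an apical urate exporter, was not called in any comparison, with differences of 0.26, -0.11 and -0.38 (edgeR adjusted p = 0.185, 0.599 and 0.0954).

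Of 11 genes that regulate glucose carriers or their traffic, 10 were tested. In 786-O against HK2 5 were higher and 4 lower, in 786-M1A against HK2 6 were higher and 4 lower, and in 786-M1A against 786-O 2 were higher and 5 lower. The median log2 fold changes of the 10 were 0.05, 0.13 and -0.12. *SORT1*, the sorting receptor of GLUT4 vesicles, was lower in all 3, with log2 fold changes of -1.78 (edgeR adjusted p = 6.36e-20), -2.76 (adjusted p = 1.1e-22) and -0.98 (adjusted p = 2.21e-13). *LNPEP*, the aminopeptidase that travels in the same vesicles, was lower in the same order by log2 fold changes of -0.85 (edgeR adjusted p = 0.000261), -1.42 (adjusted p = 1.11e-05) and -0.57 (adjusted p = 0.00882). *ARRDC4*, an arrestin that reduces glucose uptake, was higher by 1.30 (edgeR adjusted p = 1.4e-11) in 786-O and 1.18 (adjusted p = 1.05e-10) in 786-M1A. *TXNIP*, of the same list, went the other way, with -0.62 in 786-O (edgeR adjusted p = 0.000991) and -0.41 in 786-M1A (adjusted p = 0.00979). Its mean level was 86.0, 55.9 and 64.8 CPM in HK2, 786-O and 786-M1A, against 4.16, 10.3 and 9.44 for *ARRDC4*. *TBC1D4*, a Rab regulator of GLUT4 vesicles, was above 786-O in 786-M1A (0.35, edgeR adjusted p = 1.12e-06).

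Lactate and pyruvate carriers were tested for 4 of 5 genes, of which 2 were higher and 2 lower in each tumor line against HK2, and 1 was higher and 1 lower in 786-M1A against 786-O. *SLC16A3*, the lactate exporter MCT4, had 177, 445 and 526 CPM in HK2, 786-O and 786-M1A, with log2 differences of 1.33 (edgeR adjusted p = 1.18e-18) and 1.58 (adjusted p = 5.99e-20) against HK2 and 0.24 (adjusted p = 7.38e-06) between the tumor lines. *SLC16A7*, the high-affinity pyruvate carrier MCT2, was lower in 786-O (-1.63, edgeR adjusted p = 1.84e-16) and in 786-M1A (-4.07, adjusted p = 2.76e-21) than in HK2, and lower in 786-M1A than in 786-O (-2.44, adjusted p = 2.78e-15). *SLC16A1*, the widespread carrier MCT1, was lower by log2 fold changes of -0.53 and -0.62 against HK2. *BSG*, the chaperone of these carriers, was higher by 0.75 (edgeR adjusted p = 1.01e-13) and 0.68 (adjusted p = 4.95e-13). *SLC23A2*, the sodium-coupled carrier of reduced vitamin C, was lower in 786-O (-0.77, edgeR adjusted p = 3.09e-11) and in 786-M1A (-1.11, adjusted p = 7.17e-14), whereas *SLC2A10*, for the oxidized form, was higher by 1.56 and 1.67.

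**Figure D4:**
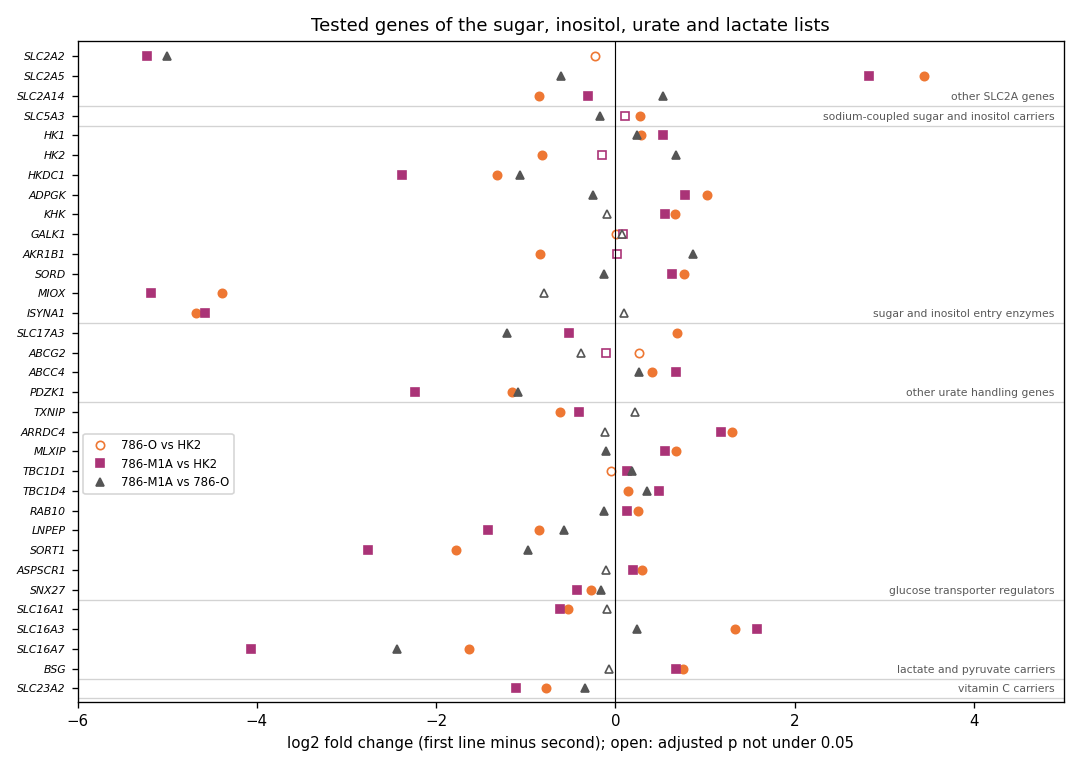
Log2 fold change (horizontal axis, first line minus second) of the tested genes of the lists of other SLC2A genes, sodium-coupled carriers, entry enzymes, urate handling genes, regulators, lactate carriers and vitamin C carriers. Filled symbols have an edgeR adjusted p under 0.05 and open symbols do not. *ISYNA1* and *MIOX* lie below -4 in both tumor lines against HK2, *SLC2A2* lies near -5 in both comparisons of 786-M1A, and *SLC2A5* lies at 3.44 and 2.83.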

How the data were processed

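Libraries were made by the authors with the TruSeq Stranded mRNA kit and run on a NextSeq 500, and reads per gene were counted with Rsubread (featureCounts in the submitters' processing notes) on GRCh38. The authors deposited raw whole-number counts for 9 libraries, with no normalization. The annotation version and the use of strand in counting are not given in the sources used here.

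Counts were scaled by TMM (factors 0.967 to 1.03) and tested in 1 fit of edgeR 4.0.16 (robust quasi-likelihood, R 4.3.3) with a coefficient per line, over the 12695 genes that averaged 50 counts or more. P-values were adjusted by Benjamini-Hochberg, with a threshold of 0.05. Standard errors were derived from the fold change and the F statistic, and 95% intervals of log2 fold changes used 6 degrees of freedom, so that an interval can reach past 0 where p is just under 0.05. Identifiers matched RefSeq symbols for 27745 genes. Exon lengths and positions came from GENCODE release 44, promoters from RefSeq on GRCh38.p14, and protein sequences were not used here. The genes and lists were chosen with earlier results of these data known. All 10 SLC2A genes are named, with genes that share reads or exons with a member. The rule for each list was at most the 3 called genes with the largest absolute log2 fold change per comparison. Beyond this rule, *ADPGK*, *HK1*, *KHK*, *SORD*, *GALK1*, *ABCG2*, *TXNIP*, *SLC16A1* and untested genes were named after their values were seen. The genes closest in pattern to *SLC2A8* are not reported here. The fit was tested on simulated data. Floors and the intervals of summed counts cover counting error only, whereas intervals of log2 fold changes rest on the spread between libraries. P-values measure the spread between cultures of a line, and each line is a single source of cells.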

Additional observations from a re-analysis of the deposited data

Results flagged for a closer look

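For 8 of the 9 tested genes, the difference from HK2 was not the same in both tumor lines, by the edgeR contrast of 786-M1A with 786-O, in which the shared HK2 libraries cancel. The difference from HK2 in 786-M1A minus that in 786-O was 2.81 for *SLC2A9* (edgeR adjusted p = 4.01e-09) and -2.02 for *SLC2A12* (adjusted p = 5.06e-12), which lay on different sides of 0. It was 0.66 for *SLC2A6* (edgeR adjusted p = 1.09e-09), whose difference from HK2 changed sign, from -0.38 in 786-O to 0.28 in 786-M1A. It was 0.61 for *SLC2A8* (edgeR adjusted p = 2.05e-09) and 0.39 for *SLC2A1* (adjusted p = 3.49e-09), both higher in each tumor line. It was 0.32 for *SLC2A11* (edgeR adjusted p = 0.0136), 0.31 for *SLC2A3* (adjusted p = 0.000426) and -0.24 for *SLC2A13* (adjusted p = 0.00772). In this contrast 56.0% of all genes tested were called.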

How the results depend on the processing

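No difference of the 9 tested genes changed direction under the alternatives run (RLE or upper-quartile scaling, DESeq2 1.42.0, limma-voom of limma 3.58.1, no filter, at least 10 counts in every library, only the 2 lines compared, the replicate block, or 1 library left out). Of 456 refits of the 27 differences of single SLC2A genes, 435 stayed on their side of the threshold, 12 lost a call and 9 gained one. The calls that moved were those of *SLC2A12* and *SLC2A13* in 786-O against HK2, *SLC2A3* in 786-M1A against HK2 (-0.17, adjusted p = 0.0174, with upper-quartile scaling) and *SLC2A10*, *SLC2A11* and *SLC2A13* between the tumor lines, and the cause was not tested. With 1 library left out, SLC2A genes called ranged from 7 to 9 in 786-O against HK2, 8 to 8 in 786-M1A against HK2 and 6 to 9 in 786-M1A against 786-O. Over all genes the ranges were 10311 to 10843, 10426 to 10798 and 6372 to 7247 in these comparisons, where the counts were 10693, 10784 and 7103. For *SLC2A4*, the log2 ratio of mean CPM between the tumor lines, -0.34 and not called, turned to 0.17 without 786-O replicate 2 and to 0.25 without 786-M1A replicate 1, at 0 to 4 counts per library. *SLC2A9* is not tested where every library needs 10 counts. The share of *SLC2A1* in the summed level was 63.3%, 88.6% and 88.2% in HK2, 786-O and 786-M1A with the longest transcript as length, and 59.5%, 87.3% and 86.7% with the canonical transcript, a choice made after seeing the data.

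The labels number the libraries 1 to 3 in each line. Deviations from the line means were correlated between libraries. Same-numbered libraries gave -0.0573 to -0.0285 for 786-O and HK2, -0.167 to 0.0376 for 786-M1A and HK2, and 0.074 to 0.215 for the tumor lines. Differently numbered libraries gave -0.00314 to 0.0524, -0.122 to 0.185 and -0.15 to 0.0482 in the same order. Same-numbered values were above all others for the tumor lines and below all others for 786-O and HK2. Whether the numbers mark shared batches was not tested, and the main fit did not pair the libraries. With a block for the number, 10688, 10797 and 7157 genes were called, *SLC2A12* was not called in 786-O against HK2 (0.20, adjusted p = 0.0531), and *SLC2A13* was (-0.14, adjusted p = 0.044).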
